A study of Homo sapiens with 60 samples.

Results

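The comparison described here set HT29 cells exposed for 24 h to an ethanol extract of Poria Cocos at 500 µg/mL against HT29 cells exposed for the same time to an ethanol extract of Atractylodis Rhizoma at 500 µg/mL. HT29 is an established human colorectal adenocarcinoma line of epithelial origin. Poria is the sclerotium of a fungus, and Atractylodis Rhizoma is the rhizome of a plant of the daisy family. The members are the 3 Poria libraries and the 3 Atractylodes libraries at that dose, chosen by their labels alone, 6 of the 60 libraries of the series. The series profiled RNA from HT29 cells under several herbal extracts, each at a high, a medium and a low dose. Both extracts were also given at 100 and 20 µg/mL, again with 3 libraries per group, which makes 18 libraries, and 3 vehicle libraries received DMSO alone (0.1% in the sample labels, 2% in the series text). All of these groups were exposed for 24 h, and no group carries a genetic change beyond those of the line. The labels do not say whether replicates were separate cultures, so the p-values rest on the scatter among libraries alone, and that scatter may be technical. The 2 extracts were matched by mass of dried extract and not by any constituent.

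Cells sense sterols at the endoplasmic reticulum. When sterols are scarce, the transcription factor SREBP2 is released to the nucleus and activates the enzymes of cholesterol synthesis and genes of sterol uptake. When sterols or their oxidised derivatives are plentiful, SREBP2 is held back, while the nuclear receptor LXR, which binds oxysterols, activates genes that export cholesterol. The related factor SREBP1 drives fatty acid synthesis and is itself a known LXR target. The intestinal epithelium makes, absorbs and exports cholesterol, so these programmes are in regular use there.

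The Poria libraries held 28.4, 29.62 and 27.25 M counts and the Atractylodes libraries 26.44, 25.76 and 26.31 M, so the Poria libraries were deeper without overlap. Mitochondrial genes took 7.506%, 7.547% and 6.825% of the Poria counts and 7.097%, 7.453% and 8.083% of the Atractylodes counts. The vehicle libraries, whose column names begin with C where those of both extracts begin with 9, stood apart in both measures, at 19.79 to 20.88 M counts and 8.91% to 11.627% mitochondrial counts. The part of these measures in the vehicle levels was not tested. Markers of colorectal epithelium summed to 13300 to 13600 counts per M (CPM) with Poria and 12700 to 12900 CPM with Atractylodes, and none of the 12 was at 0. Fibroblast markers summed to 2.11 to 2.77 CPM with Poria and 1.66 to 2.28 CPM with Atractylodes, with COL1A2, COL3A1 and PDGFRA at 0. The 6 endothelial markers summed to 2.36 to 2.79 and 2.56 to 3.37 CPM, with KDR at 0. The 9 leukocyte markers summed to 1370 to 1450 CPM with Poria and 1490 to 1570 CPM with Atractylodes, of which LYZ, a lysozyme that intestinal epithelium also makes, gave nearly all, while CD3E, CD3D and MS4A1 were at 0.

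Of 16445 genes tested, 161 (0.979%) differed between the extracts at 500 µg/mL at an adjusted p below 0.05 in edgeR's quasi-likelihood test with Benjamini-Hochberg adjustment. An unadjusted p below 0.05 was found for 1633 genes (9.93%). With Poria 88 genes (0.535%) were higher and 73 (0.444%) lower than with Atractylodes. Genes of cholesterol synthesis and uptake were higher with Poria, and 4 LXR target genes, among them 2 cholesterol exporters, were lower. The fatty acid synthesis list split, with 4 of 17 members higher, ACSS2 the most, and 2 lower. Most differences were small, with a median log2 fold change of 0.31 among the higher genes and -0.24 among the lower ones. A fold of at least 2 was reached by 3 higher genes, among them LINC03040 and ADCY5, and 2 lower genes (ABCG1 and TGFB3). ADCY5 and TGFB3 were named after their values were seen, and both lay near or under 1 CPM. The count was 91 without Poria replicate 1, 75 without Atractylodes replicate 2 and 99 without Atractylodes replicate 3. With the 6 libraries fitted alone it was 266, and without the filter on low counts 293.

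**Figure D1:**
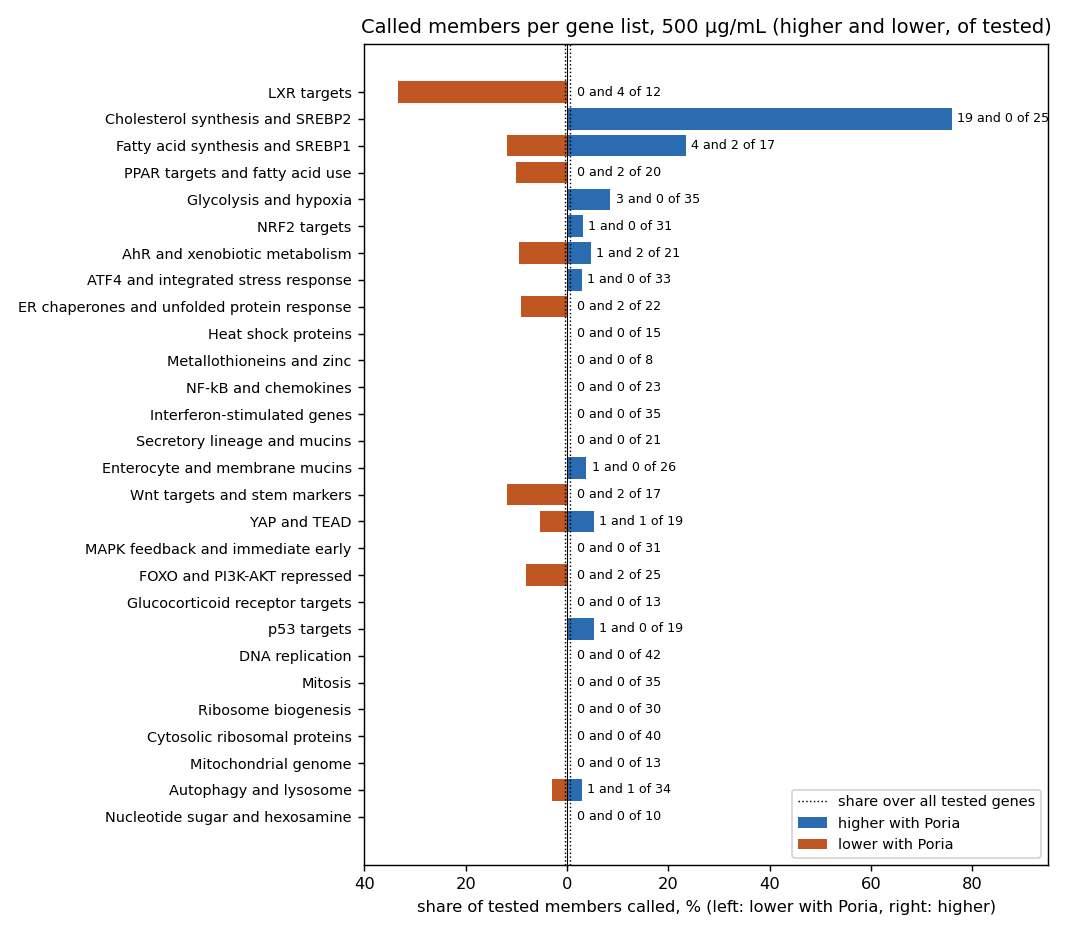
Share of the tested members of each gene list that differed at 500 µg/mL, in percent, with members higher with Poria drawn to the right and lower members to the left. The text on each row gives the called members in each direction and the number tested, and the dotted lines mark the share over all 16445 genes. The cholesterol synthesis list stands furthest out, with 19 of 25 members higher, and the LXR list has 4 of 12 members lower.

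Promoter sequence is shown first for the genes of cholesterol synthesis with the largest differences, because these genes moved together and are known to be driven by SREBP2 acting beside the factors NF-Y and Sp1. RefSeq promoters (GRCh38.p14) were held for 18 of the 25 list members, and the 250 bases before each annotated start were searched on both strands. The capitals mark CCAAT, the NF-Y motif, which reads ATTGG where it lies on the opposite strand. MVD is a decarboxylase of the mevalonate pathway, HMGCS1 makes the HMG-CoA that enters it, HSD17B7 and LSS act on sterols and FDPS makes farnesyl diphosphate.
MVD: ctcgcacgggCCAATcctgtggtag
HMGCS1: accggccgcgATTGGctgtgggagc
HSD17B7: gcggactgagATTGGagggatcagc
LSS: cggcgctctgATTGGttgcgtgggc
FDPS: ccgcgggcacATTGGgagttgtagt
In order, these lie at chr16:88663162-88663186 on the minus strand, chr5:43313498-43313522 on the minus strand, chr1:162790640-162790664 on the plus strand, chr21:46228910-46228934 on the minus strand and chr1:155308805-155308829 on the plus strand. The matches begin 85, 100, 52, 150 and 51 bases before the RefSeq start. GENCODE release 29 places some of these starts further upstream, so a window can lie inside its gene model.

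CCAAT occurred in 15 of the 18 promoters (83.3%), the exceptions being CYP51A1, IDI1 and PMVK, and in 35.0% of the 11184 promoters held for tested genes. Among the other genes higher with Poria it occurred in 17 of 47 promoters (36.2%), and among the genes lower with Poria in 21 of 56 (37.5%). The Sp1 motif GGGCGG occurred in 17 of the 18 (94.4%), against 65.6% of promoters of tested genes. The sterol regulatory element core, TCACNCCAC, was far rarer, at 0.876% of promoters of tested genes. Within the list it was found in SREBF2, which encodes SREBP2 itself, and among the other genes higher with Poria in ALDOC, a glycolytic aldolase. Both are shown with the core in capitals.
SREBF2: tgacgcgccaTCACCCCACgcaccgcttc
ALDOC: ggcggggcgcTCACTCCACctcgccgccc
They lie at chr22:41832962-41832990 on the plus strand and chr17:28577015-28577043 on the minus strand. A strict LXR element of the DR4 type (perfect direct repeats) was absent from the 9 LXR list promoters held and from every promoter of a tested gene. These matches describe letters in these windows and were not tested as binding sites.

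Genes of cholesterol synthesis and uptake were higher with Poria in 19 of the 25 list members, and none was lower. In 24 of the 25 the 3 Poria libraries lay above the 3 Atractylodes libraries without overlap, where 9.91% of all genes did so, 9.78% lay below without overlap and 19.7% did either. The list's median log2 fold change was 0.36, and that of all tested genes was 0.00. PMVK, a kinase of the mevalonate pathway, was the member whose libraries overlapped. The summed level of the list was 4960 to 5270 CPM with Poria, 4010 to 4360 CPM with Atractylodes and 4480 to 4960 CPM in vehicle. The number of higher members was 13 without Poria replicate 1 or Atractylodes replicate 3, and lay between 14 and 19 without each of the other libraries.

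At the entry to the pathway, HMGCS1 was measured at 300, 273 and 290 CPM with Poria and at 220, 193 and 186 CPM with Atractylodes. All Poria libraries lay above all Atractylodes libraries, with a log2 fold change of 0.53 ± 0.10 (SE of the fit) and an adjusted p of 0.00082. MVD stood at 68, 59.2 and 65.6 CPM against 43.3, 46.7 and 43.1 CPM, a log2 difference of 0.53 ± 0.08 (edgeR adjusted p = 3.1e-05). The kinase MVK had a log2 fold change of 0.37 ± 0.09 and an adjusted p of 0.016 in edgeR, which rose to 0.22, 0.074 and 0.11 without Poria replicate 1, Atractylodes replicate 2 and Atractylodes replicate 3.

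The isoprenoid and squalene steps had the same order. IDI1, an isomerase of isoprenoid units, stood at 179, 171 and 172 CPM with Poria and 143, 126 and 125 CPM with Atractylodes, with a log2 fold change of 0.41 ± 0.08 (edgeR adjusted p = 0.0019). FDPS stood at 173, 170 and 177 CPM with Poria and 136, 126 and 129 CPM with Atractylodes, and its log2 fold change was 0.41 ± 0.04 (edgeR adjusted p = 9.9e-09). SQLE, the epoxidase that acts on squalene, stood at 970, 899 and 900 CPM with Poria and 755, 662 and 683 CPM with Atractylodes. The gap between the groups was wider than the spread within either for each of these 3 genes. SQLE differed by 0.40 ± 0.07 on the log2 scale (edgeR adjusted p = 0.00044).

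LSS, lanosterol synthase, closes the sterol ring and had the smallest adjusted p of the list. It stood at 133, 134 and 128 CPM with Poria and at 96.3, 101 and 96.8 CPM with Atractylodes. The 2 ranges were far apart for their width, with a log2 fold change of 0.43 ± 0.03 (edgeR adjusted p = 8.7e-13). Downstream, HSD17B7, EBP, NSDHL, CYP51A1, MSMO1, DHCR7 and TM7SF2, enzymes that trim lanosterol to cholesterol, were also higher, with log2 fold changes between 0.26 (TM7SF2) and 0.45 (HSD17B7). Of these, the calls of CYP51A1, MSMO1, DHCR7 and TM7SF2 each failed when single libraries were left out, with the largest adjusted p values 0.09, 0.33, 0.099 and 0.068. MSMO1 reached that value without Poria replicate 1, DHCR7 without Atractylodes replicate 2, and the other two without Atractylodes replicate 3. SC5D (0.25, edgeR adjusted p = 0.054), which acts late in the pathway, did not pass the test.

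Regulators of the pathway were measured too. INSIG1, which retains the SREBP machinery in the endoplasmic reticulum, had a log2 fold change of 0.37 ± 0.08 (edgeR adjusted p = 0.0048), and its adjusted p was 0.066, 0.061 and 0.052 without Poria replicate 1, Atractylodes replicate 2 and Atractylodes replicate 3. SREBF2 was at 303, 295 and 288 CPM against 273, 276 and 265 CPM, and its log2 difference of 0.12 ± 0.04 did not pass the test (edgeR adjusted p = 0.096).

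**Figure D2:**
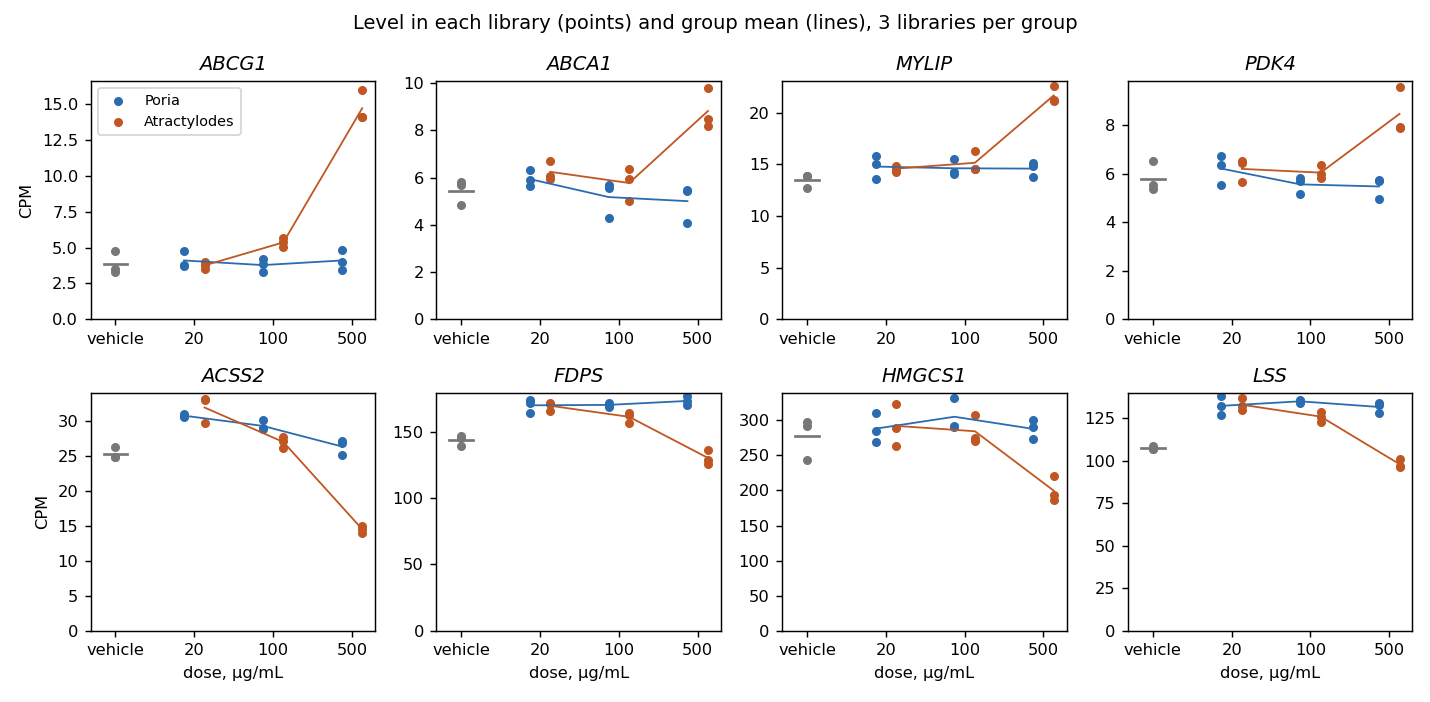
Level of 8 genes in CPM (linear axis from 0) in vehicle and at 20, 100 and 500 µg/mL (dose steps drawn evenly) of Poria and Atractylodes; points are single libraries and lines join the means of 3. At 500 µg/mL the Atractylodes points of ABCG1, ABCA1, MYLIP and PDK4 sit above and those of ACSS2, FDPS, HMGCS1 and LSS below all Poria points.

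The exporters showed the opposite order. ABCG1, a transporter that moves cholesterol to high-density lipoprotein, had the largest difference among genes with at least 5 CPM. Its gene lies on the plus strand of chromosome 21 from 42199689 to 42297244. It stood at 4.86, 4.02 and 3.42 CPM with Poria, at 16, 14.1 and 14.1 CPM with Atractylodes and at 4.73, 3.51 and 3.28 CPM in vehicle. The Poria and vehicle libraries overlapped, and every Atractylodes library lay far above both. The log2 fold change was -1.84 ± 0.12 for Poria against Atractylodes (edgeR adjusted p = 6e-16).

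ABCA1, the transporter that loads cholesterol onto apolipoprotein A-I, stood at 4.07, 5.45 and 5.49 CPM with Poria and at 8.48, 8.19 and 9.81 CPM with Atractylodes. Its log2 fold change was -0.82 ± 0.12 (edgeR adjusted p = 1.5e-05). MYLIP, a ubiquitin ligase, stood at 15.1, 13.8 and 14.9 CPM against 21.3, 21.2 and 22.6 CPM. The groups of both genes were well apart, and MYLIP had a log2 fold change of -0.57 ± 0.07 (edgeR adjusted p = 7.6e-07). SREBF1, which encodes SREBP1, stood at 161, 163 and 155 CPM with Poria and 186, 195 and 179 CPM with Atractylodes. It differed by -0.23 ± 0.05 (edgeR adjusted p = 0.0035), and its adjusted p was 0.063 without Atractylodes replicate 2.

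These 4 genes were the members of the 12 tested on the LXR list that passed, all of them lower with Poria (33.3%), and the list median was -0.20. Of the 12, 4 were above 0, up to 0.61 (APOE), and the median was -0.11 without Poria replicate 1. LPCAT3, a phospholipid remodelling enzyme, had a log2 fold change of -0.25 ± 0.07 (edgeR adjusted p = 0.055), and NR1H3, the gene of LXRα, one of -0.16 ± 0.06 (edgeR adjusted p = 0.22), both without overlap between libraries. SCD, a desaturase and a target shared with SREBP1, stood at 1940, 1880 and 1920 CPM with Poria and 2050, 1950 and 1960 CPM with Atractylodes, a log2 difference of -0.05 with a 95% interval of -0.14 to 0.04. The apolipoprotein genes APOE and APOC1 were at about 1 CPM or below in both groups.

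Genes of fatty acid synthesis split. ACSS2, which makes acetyl-CoA from acetate and is a known SREBP target, stood at 26.8, 27.2 and 25.1 CPM with Poria and at 15, 14.6 and 14 CPM with Atractylodes. The groups were far apart, and the vehicle libraries stood at 24.8 to 26.3 CPM. From 20 to 500 µg/mL ACSS2 fell with both extracts, by 0.22 on the log2 scale with Poria (edgeR adjusted p = 0.033) and by 1.14 with Atractylodes (edgeR adjusted p = 9.4e-19). The log2 fold change was 0.86 ± 0.06 (edgeR adjusted p = 1.2e-13). ACLY, which makes acetyl-CoA from citrate, and TMEM97, a sterol-responsive membrane protein, had log2 fold changes of 0.20 each (edgeR adjusted p = 1e-04 and 0.001). SLC25A1, the mitochondrial citrate carrier, had one of 0.23 ± 0.05 (edgeR adjusted p = 0.013), which was lost without Poria replicate 1 or 2 or Atractylodes replicate 2 or 3 (adjusted p = 0.078, 0.1, 0.075 and 0.061). ACSL3, which activates long-chain fatty acids, stood lower with Poria at -0.14 ± 0.03 (edgeR adjusted p = 0.0098). Its adjusted p was 0.079, 0.083 and 0.053 without Poria replicates 1 and 2 and Atractylodes replicate 2. It was 0.21 without the filter on low counts and 0.054 with the 18 libraries of both extracts alone. FASN, fatty acid synthase, stood at 1230, 1170 and 1130 CPM against 1170, 1140 and 1090 CPM, groups that overlap, with a 95% interval of -0.05 to 0.16 for the log2 difference. Of 17 members tested 4 were higher and 2 lower with Poria, and the list median was 0.02.

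The called genes of the PPAR and fatty acid use list, 2 of 20 tested, were lower with Poria. PDK4, the kinase that turns off pyruvate entry to the citric acid cycle, stood at 5.75, 5.68 and 4.97 CPM against 7.91, 9.58 and 7.88 CPM, with a log2 fold change of -0.63 ± 0.10 (edgeR adjusted p = 7.6e-05). Its groups did not overlap. The list median was -0.09, and CPT1A, the gate to mitochondrial fatty acid oxidation, had a log2 difference of -0.11 ± 0.05 (edgeR adjusted p = 0.47).

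The same comparison was made at the lower doses. At 100 µg/mL no gene passed edgeR's test (0.0%), 575 (3.5%) had an unadjusted p below 0.05 and DESeq2 called 0 too. At 20 µg/mL edgeR and DESeq2 again called 0 genes, and 1328 (8.08%) had an unadjusted p below 0.05. With the 6 libraries of the dose fitted alone, 6 genes were called at 100 µg/mL, and without the filter on low counts 106 at 100 and 213 at 20 µg/mL. At 20 µg/mL, 1 gene was called without Poria replicate 2, and 1 without Poria replicate 3. In the cholesterol list 23 of 25 members were above 0 at 100 µg/mL with a median of 0.05, and 11 of 25 at 20 µg/mL with a median of -0.01. Of all tested genes 8097 were above and 8330 below 0 at 100 µg/mL, and other lists also shared a sign there: 12 of 13 mitochondrial genome members were above 0, and 0 of 40 ribosomal protein members. ABCG1 at 100 µg/mL stood at 4.18, 3.88 and 3.27 CPM with Poria and 5.02, 5.37 and 5.7 CPM with Atractylodes, which do not overlap, a log2 difference of -0.50 that did not pass.

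**Figure D3:**
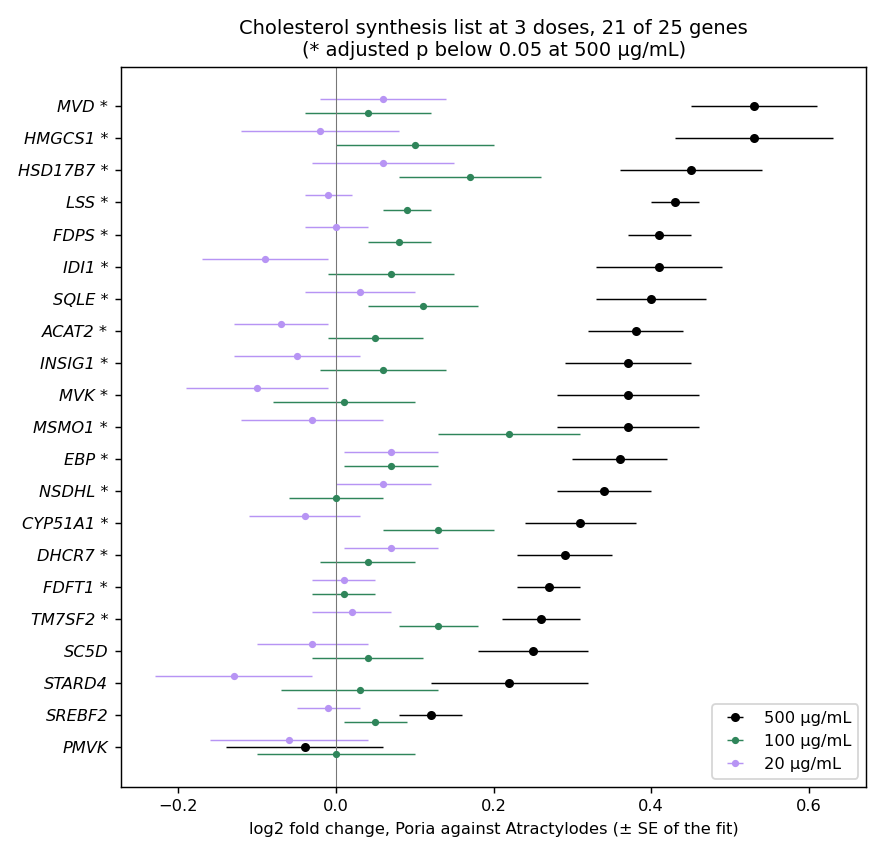
Log2 fold change of Poria against Atractylodes with the SE of the fit for 21 of the 25 cholesterol list genes at 500, 100 and 20 µg/mL; an asterisk marks an adjusted p below 0.05 at 500 µg/mL. At 500 µg/mL the points run from -0.04 (PMVK) to 0.53 (MVD and HMGCS1), and at the lower doses they cluster near 0.

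Each extract was also compared with its own low dose, which shares libraries with the comparison above and is given as each extract's own value. From 20 to 500 µg/mL, 306 genes (1.86%) changed with Poria, of which 168 (1.02%) rose and 138 (0.839%) fell. With Atractylodes 649 genes (3.95%) changed, of which 318 (1.93%) rose and 331 (2.01%) fell. The Poria count was 146, 175 and 178 without high dose replicates 1, 2 and 3 and 168 without low dose replicate 3. The Atractylodes count was 377 and 424 without high dose replicates 1 and 3 and 400 without low dose replicate 3. With only the libraries compared in the fit they were 92 and 341. In the cholesterol list 20 of 25 members fell with Atractylodes, with a median of -0.32. With Poria none rose and 1 fell, TM7SF2, with a median of 0.02. For HMGCS1 the change was -0.55 (edgeR adjusted p = 0.00016) with Atractylodes and 0.00 with Poria. ABCG1 rose with Atractylodes by 1.97 (edgeR adjusted p = 1.6e-17) and had a change of 0.00 with Poria.

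Of the 88 genes higher with Poria at 500 µg/mL, 57 fell with Atractylodes over this dose range, 7 rose with Poria and 24 did neither. Of the 73 lower genes, 29 rose with Atractylodes, 8 fell with Poria and 36 did neither. Of the higher genes 9 were called in the same direction with both extracts. They were 6 of the 57, which also fell with Poria (ACSS2, CLIC5, ATP6V1B1, MUC13, MUC20 and TM7SF2), and 3 of the 7, which also rose with Atractylodes (FTH1, FLNA and SCARB1). Of the lower genes 1, ABCG2, rose with both. The genes that fell with Poria include TPPP3, a tubulin-binding protein, at -0.51 (edgeR adjusted p = 1.4e-05) against 0.05 with Atractylodes, and DHRS3, a retinal reductase, at -0.31 (edgeR adjusted p = 0.00051) against 0.09. TRIB3, a pseudokinase induced by the stress factor ATF4, rose with Poria by 0.25 (edgeR adjusted p = 0.0098) and had a change of -0.16 (edgeR adjusted p = 0.15) with Atractylodes.

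**Figure D4:**
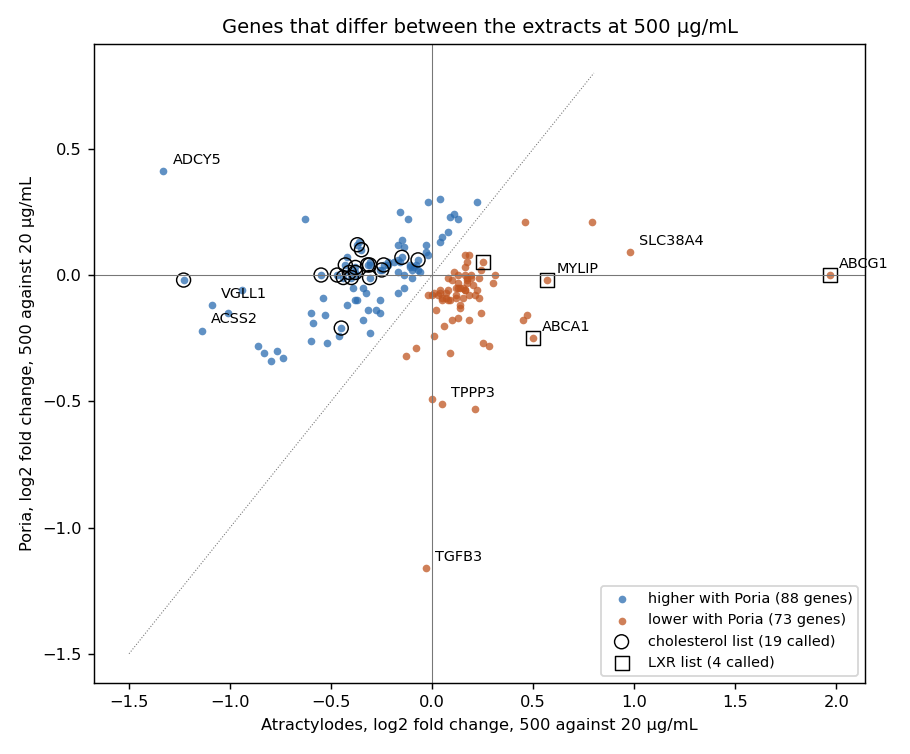
Change from 20 to 500 µg/mL in Atractylodes (x axis) and in Poria (y axis), as log2 fold changes, for the 161 genes that differed between the extracts at 500 µg/mL; circles and squares mark called members of the cholesterol and LXR lists, and the dotted line marks equal change. ABCG1 lies furthest right at 1.97 and 0.00, and the cholesterol genes lie left of 0 on the x axis and close to 0 on the y axis, apart from TM7SF2 at -0.21.

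The difference between these changes was tested as an interaction of extract and dose. It passed for 26 genes (0.158%), of which 15 (0.0912%) were above 0, meaning a higher change with Poria, and 11 (0.0669%) below 0, and all 26 were among the 161. An unadjusted p below 0.05 was found for 895 genes (5.44%). ABCG1 (-1.97, edgeR adjusted p = 6.1e-10), ACSS2 (0.91, edgeR adjusted p = 6.1e-10) and LSS (0.44, edgeR adjusted p = 3.6e-08) were the firmest. The 6 cholesterol list members that passed included IDI1, FDPS, FDFT1, LSS and ACAT2, of which FDFT1 (edgeR adjusted p = 0.039) was lost under 13 of 19 alternatives, with an adjusted p of up to 0.25, IDI1 under 9 and ACAT2 under 1. The count of 26 was 13 without Poria low replicate 1 or Atractylodes high replicate 2, and 16 without Poria high replicate 2 or 3 or Atractylodes low replicate 1 or 2. Of the 26 genes, 10 passed under all of the 19 alternatives, among them ABCG1, MYLIP, TPPP3, NEU1, FDPS, LSS, LINC03040 and ACSS2.

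The group means of the other 17 fitted groups give the range of these genes in the experiment. For 21 of the 25 cholesterol list genes the Atractylodes high dose had the lowest mean of all fitted groups. This count is given without the matching share over all tested genes. The ranking also crosses sets of libraries whose column names begin differently, and the part of these sets in it was not tested. For LSS the Atractylodes high dose mean was 97.9 CPM, the next lowest was vehicle at 107 CPM, and Poria stood at 132 CPM. For HMGCS1 the Atractylodes mean of 199 CPM was close to that of Glycyrrhiza (licorice) at its high dose, 201 CPM. The Glycyrrhiza high dose was 350 µg/mL, of an ethanol extract, and its column names begin with 10. For ABCG1 the Glycyrrhiza high dose, at 18.8 CPM, was the one group above Atractylodes at 14.7 CPM, and the median of the other groups was 3.92 CPM.

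Most antioxidant genes under NRF2, the factor that responds to electrophiles, rose with dose under both extracts, and 1 of 31 was called between them at 500 µg/mL. At that dose 22 of the 31 were above 0 and 9 below, with a median of 0.04, and 8 had an unadjusted p below 0.05. In 10 the Poria libraries lay above the Atractylodes libraries without overlap and in 1 below, where 9.91% and 9.78% of all genes did so. With each extract 26 of 31 list members rose from 20 to 500 µg/mL, with medians of 0.44 for Poria and 0.45 for Atractylodes. AKR1B10, an aldo-keto reductase, stood at 247, 237 and 231 CPM with Poria, 261, 236 and 250 CPM with Atractylodes and 94.9 CPM in vehicle. The extracts overlapped and differed by -0.06 on the log2 scale, with a 95% interval of -0.17 to 0.05. For AKR1C2, whose near-identical family members share reads, the interval was -0.14 to 0.13. FTH1, the ferritin heavy chain, was the one member called. It stood at 6110, 5770 and 6050 CPM with Poria, 5380, 5130 and 5340 CPM with Atractylodes and 5650, 5390 and 5740 CPM in vehicle. Its log2 fold change was 0.18 ± 0.04 (edgeR adjusted p = 0.014), and the adjusted p was 0.12, 0.072 and 0.15 without Poria replicates 1 and 3 and Atractylodes replicate 2.

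**Figure D5:**
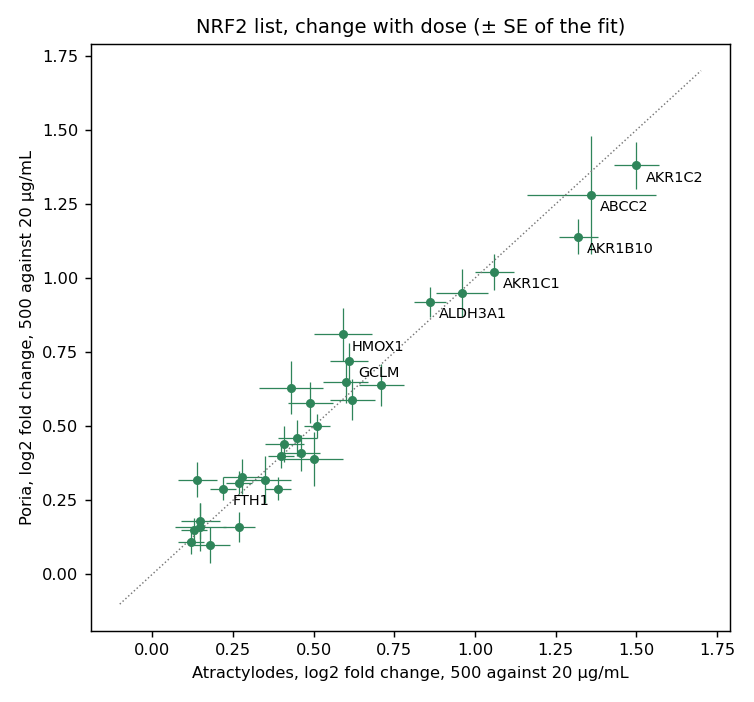
Change from 20 to 500 µg/mL in Atractylodes (x axis) and Poria (y axis), as log2 fold changes with the SE of the fit, for the 31 NRF2 list genes; the dotted line marks equal change. The genes follow the line from about 0.10 to 1.38 on the Poria axis (AKR1C2 highest).

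Smaller groups held a few differences each. In the glycolysis and hypoxia list 3 of 35 members were higher with Poria. ALDOC stood at 23, 22.2 and 20 CPM with Poria and 14.7, 14.3 and 15.7 CPM with Atractylodes, which do not overlap, a log2 fold change of 0.55 ± 0.07 (edgeR adjusted p = 1.3e-06). VEGFA, the vascular growth factor, was higher by 0.14 and BHLHE40, a repressor of the clock, by 0.41. The call of VEGFA (edgeR adjusted p = 0.04) failed without Poria replicate 1 or 2 or Atractylodes replicate 2 or 3, with an adjusted p of up to 0.37. That of BHLHE40 (edgeR adjusted p = 0.028) failed without Poria replicate 1 or 3 or Atractylodes replicate 2 or 3, with an adjusted p of up to 0.38.

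Of 21 xenobiotic genes, CYP1B1, an AhR target, was higher with Poria, while CYP3A5 and the efflux pump ABCG2 were lower. CYP1B1 stood at 71.1, 67.1 and 72.6 CPM against 53.4, 55.3 and 53.1 CPM (log2 0.38 ± 0.08, edgeR adjusted p = 0.005). One vehicle library held 88.8 CPM, above both extracts, and the other vehicle libraries 56.4 and 55.7 CPM. ABCG2 stood at 97, 106 and 99.8 CPM with Poria and 120, 125 and 126 CPM with Atractylodes, without overlap (log2 -0.29 ± 0.05, edgeR adjusted p = 5.5e-05).

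Chaperones of the endoplasmic reticulum HSPA5 and DNAJB11 were lower with Poria (log2 -0.19 and -0.15, edgeR adjusted p = 0.0071 and 0.013), 2 of 22 tested. Of the 22, 18 were below 0 and 4 above, with a median of -0.05, and 8 had an unadjusted p below 0.05. In 11 the Poria libraries lay below the Atractylodes libraries without overlap and in 0 above, where 9.78% and 9.91% of all genes did so. HSPA5 did not pass without Atractylodes replicate 1 or 2 or Poria replicate 2 (adjusted p = 0.071, 0.06 and 0.054), and DNAJB11 did not without Poria replicate 1 or Atractylodes replicate 2 (0.14 and 0.1). The stem cell receptor LGR5 stood at 36.6, 39.1 and 40.4 CPM with Poria and 45.3, 51.6 and 49.1 CPM with Atractylodes (log2 -0.33 ± 0.05, edgeR adjusted p = 0.00013), groups that do not overlap. CD44, a Wnt target, was lower by -0.16 (edgeR adjusted p = 0.019), and failed without Poria replicate 1 or 2 or Atractylodes replicate 2 or 3, with an adjusted p of up to 0.15. These were 2 of 17 on the Wnt and stem list.

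VGLL1, a cofactor of TEAD factors, stood at 3.29, 4.02 and 3.72 CPM with Poria, 1.94, 1.86 and 1.85 CPM with Atractylodes and 5.32, 4.43 and 6.61 CPM in vehicle. The Atractylodes libraries were the lowest and the vehicle libraries the highest, with a log2 fold change between the extracts of 0.96 ± 0.15 (edgeR adjusted p = 7.5e-05). TEAD1 was lower with Poria by -0.26 ± 0.05 (edgeR adjusted p = 0.00044). TRIB3 stood at 45.4, 47.7 and 47.4 CPM with Poria and 36, 35.1 and 36.7 CPM with Atractylodes, and was the 1 of 33 ATF4 list genes called (log2 0.38 ± 0.06, edgeR adjusted p = 3.3e-05).

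CDKN1A, the p53 target p21, was called higher with Poria although its libraries overlapped, at 21.4, 18 and 19.1 CPM with Poria and 18.4, 13 and 14.5 CPM with Atractylodes. Its log2 difference was 0.35 ± 0.08 (edgeR adjusted p = 0.014), and its adjusted p was 0.22, 0.32 and 0.13 without Poria replicate 1, Atractylodes replicate 2 and Atractylodes replicate 3. TXNIP, which restrains glucose uptake, was lower by -0.28 (edgeR adjusted p = 0.0071), and without Poria replicates 1 and 3 and Atractylodes replicate 3 its adjusted p was 0.085, 0.058 and 0.068. The membrane mucin MUC13 was higher by 0.28 (edgeR adjusted p = 0.0087), and without Poria replicate 1, Atractylodes replicate 2 and Atractylodes replicate 3 its adjusted p was 0.22, 0.062 and 0.059. NEU1, a lysosomal sialidase, stood at 62.8, 59.6 and 59.7 CPM against 50.4, 49.2 and 47.8 CPM, without overlap (log2 0.30 ± 0.05, edgeR adjusted p = 2.8e-05). CTSB, a lysosomal protease, was lower by -0.14 (edgeR adjusted p = 0.048), and its call failed without any one of 5 of the 6 libraries, with an adjusted p of up to 0.3 (without Poria replicate 1).

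Outside the lists, LINC03040, which GENCODE release 29 types as protein-coding, stood at 6.5, 5.89 and 5.93 CPM with Poria and 2.89, 3.1 and 3.11 CPM with Atractylodes (log2 1.01 ± 0.12, edgeR adjusted p = 5.9e-08). UCA1, a long non-coding RNA, was higher with Poria by 0.47 and the amino acid transporter SLC6A20 by 0.46. GABRP, a subunit of the GABA-A receptor, stood at 9.83, 11.1 and 11.9 CPM with Poria and 16.1, 19.7 and 19.6 CPM with Atractylodes (log2 -0.76 ± 0.12, edgeR adjusted p = 4.2e-05). The groups of both LINC03040 and GABRP were apart. SLC38A4, an amino acid transporter, was lower by -0.77 ± 0.15 (edgeR adjusted p = 0.0026), and MAOA, which oxidises monoamines, by -0.39 ± 0.06 (edgeR adjusted p = 2.8e-05). NR0B2, the nuclear receptor SHP that bile acid signalling induces, was lower by -0.53 ± 0.13 (edgeR adjusted p = 0.033), and its adjusted p was 0.15, 0.17, 0.055 and 0.28 without Poria replicates 1 and 3 and Atractylodes replicates 2 and 3.

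No member passed edgeR's test among the NF-kB and chemokine list (23 tested), although 8 had an unadjusted p below 0.05 and the list median was 0.24. CXCL1, a neutrophil attractant, stood at 2.57, 2.38 and 2.14 CPM with Poria and 1.37, 1.75 and 1.58 CPM with Atractylodes, which do not overlap, and its log2 difference of 0.60 ± 0.19 did not pass (edgeR adjusted p = 0.16). CXCL8, another chemokine, had a difference of 0.27 ± 0.09 (edgeR adjusted p = 0.17). Nor did any of 35 interferon-stimulated, 42 DNA replication, 35 mitosis, 15 heat shock or 40 cytosolic ribosomal protein genes pass, of which 6, 3, 5, 0 and 2 had an unadjusted p below 0.05. The same held for the metallothionein (8 tested), secretory lineage (21), MAPK (31), glucocorticoid (13), ribosome biogenesis (30), mitochondrial genome (13) and hexosamine (10) lists, with 1, 3, 9, 1, 2, 0 and 4 genes at an unadjusted p below 0.05. The ribosomal protein list had a median of 0.06, and 12 of its 40 genes were higher with Poria without overlap, where 9.91% of all genes were. At 100 µg/mL all 40 were below 0, with a median of -0.07.

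Several genes share their locus. ACSS2 overlaps GGT7, FDPS overlaps RUSC1-AS1, MVK overlaps MMAB, ACAT2 overlaps TCP1, SREBF1 overlaps RAI1 and CYP1B1 overlaps RMDN2 on the opposite strand, and TM7SF2 overlaps VPS51 on its own strand. The libraries keep strand, but no source used here gives the strand setting of the counting, so reads of such pairs may not be fully separate. HSD17B7 and FTH1 have near-identical copies elsewhere, among which RSEM divides reads by estimated probability. The depth of the libraries differed between the extracts without overlap, and with the 6 libraries thinned to 25.76 M counts each, an alternative chosen after the data were seen, 147 genes were called, of which 143 were among the 161.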

How the data were processed

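RNA of 60 HT29 libraries was read as 100 bp pairs from strand-specific libraries, per the labels' protocols. The values the authors deposited are expected counts from RSEM 1.3.3. The submitters' processing notes also list FastQC 0.11.9, Trim Galore 0.6.5, STAR 2.7.3a and the build hg38, and no source used here names an annotation release. These counts (7.7% to 9.78% of values not whole) were rounded. Its 213 other sample columns were not used. Library totals ran from 19.31 to 29.62 M (median 25.06 M). Of 60675 identifiers 56558 had a symbol in the gene name table used, and gene positions from GENCODE (release 29, GRCh38).

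The 19 groups of 3 (57 libraries) were fitted together, so that they share 1 estimate of the spread, with edgeR 4.0.16 in R 4.3.3: TMM factors (0.956 to 1.031), filterByExpr (16445 genes), the quasi-likelihood F test (38 residual degrees of freedom) and Benjamini-Hochberg adjustment within each comparison, with calls at an adjusted p below 0.05. Left out were 3 libraries of Angelica without replicates. CPM were scaled by each library's total times its TMM factor, except the sums of cell type markers, which used the total alone. Standard errors were derived from each log2 fold change and its F statistic in the fit, and 95% intervals from these errors. Replicates of a group differed beyond sampling noise, so each counted once. Among the Poria and Atractylodes groups, Poria low replicate 1 stood furthest from its group. Its chi-square per degree of freedom was 26.17 and 18.9 against replicates 2 and 3, and 3.52 between those. It held 9.706% mitochondrial counts, against 6.694% and 7.615% in replicates 2 and 3. The cause of this was not tested.

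The libraries compared, the comparisons and the gene lists were chosen with earlier results of these data known. Genes named are the 15 largest differences per direction with a symbol, at least 5 CPM in the higher group and no overlap between libraries, up to 3 called members per list, and the 5 largest interactions per direction. Lists are described by counts and medians, with no test of a list. Other list members were named to describe their list, some after their values were seen. Results of some genes are not reported here by name, and counts include them. Promoter windows are from RefSeq (GRCh38.p14).

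Alternatives were RLE factors, no filter, DESeq2 1.42.0, the compared or the same set's 18 libraries alone, a block for the replicate number, the mitochondrial share as a covariate, each library left out, and, chosen after the data were seen, thinning to one depth. The fit was tested on simulated data.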

Additional observations from a re-analysis of the deposited data

Results flagged for a closer look

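The change from 20 to 500 µg/mL differed between the extracts, by the interaction term in edgeR, for 26 genes. The values below are log2 differences of the changes, Poria minus Atractylodes. Among sterol and acetyl-CoA genes they were 0.91 for ACSS2, 0.5 for IDI1, 0.44 for LSS and 0.41 for FDPS. Among LXR and fatty acid use genes they were -1.97 for ABCG1, -0.74 for ABCA1, -0.59 for MYLIP and -0.63 for PDK4.

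The other named genes above 0 were VGLL1 (0.97), LINC03040 (0.86), SLC6A20 (0.58), ALDOC (0.49), CLIC5, a chloride channel protein (0.41), TRIB3 (0.41) and NEU1 (0.36). Those below 0 were TPPP3 (-0.57), MYADM, a membrane protein (-0.52), DHRS3 (-0.4), TRIM31, a ubiquitin ligase (-0.36), and TEAD1 (-0.3). In the Poria low dose libraries MYADM stood at 134, 93.8 and 96.5 CPM and TRIM31 at 217, 170 and 182 CPM. Neither of these genes passed without replicate 1 of that group. The term was lost for ABCA1 under 15 of the 19 alternatives, for SLC6A20 under 14 and for PDK4 under 13. It was lost for MYADM and TRIM31 under 10 each, for IDI1 under 9, for ALDOC and TEAD1 under 8 each, for VGLL1 under 7, for CLIC5 under 5, for TRIB3 under 4 and for DHRS3 under 2.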

How the results depend on the processing

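The 161 genes at 500 µg/mL became 293 without the filter on low counts, 266 with the compared libraries alone and 75 to 114 with single libraries left out. At 100 µg/mL the count of 0 became 106 without the filter, 4 with the set's 18 libraries alone and 6 with the compared libraries alone. At 20 µg/mL 0 became 213 without the filter and 0 to 1 with single libraries left out. The interaction's 26 became 148 without the filter and 13 to 23 with libraries left out. Poria's 306 changes with dose became 519 without the filter, 92 with the compared libraries alone and 146 to 253 with libraries left out. Atractylodes' 649 became 341 with the compared libraries alone and 377 to 544 with libraries left out. RLE factors, DESeq2 (185 genes at 500 µg/mL), the mitochondrial share and thinning (run at 500 µg/mL alone) moved no count by over 1.5 times. The cause of these shifts was not tested. Of the 50 named genes 34 were called under each of 14 alternatives and none changed sign. Beyond the fits that left out 1 library, DNAJB11, VEGFA and CTSB were lost without the filter. With the set's 18 libraries alone CDKN1A, NR0B2, BHLHE40, MYADM, VEGFA and CTSB were lost. With the compared libraries alone CDKN1A, BHLHE40, VEGFA and CTSB were lost, and with thinning NR0B2 and CTSB.

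Replicate numbers are shared between groups. Deviations of same-numbered libraries at 500 µg/mL correlated at 0.214, 0.1 and 0.044, and those of other pairs between -0.141 and 0.057. The same-numbered values of replicates 1 and 2 lay above those of every other pair. Poria 3 correlated best with Atractylodes 2, and the main fit did not pair the libraries. HMGCS1, MSMO1 and CYP51A1 were highest in replicate 1 in every Poria and Atractylodes group, and IDI1 was so with both extracts at 500 µg/mL. FDPS and MVD were highest in different replicates at that dose. Whether same-numbered libraries share a source was not tested, and the fits that left out 1 library did not allow for it. With the replicate block 246 genes were called at 500 µg/mL, 50 for the interaction and 474 for Poria's dose change. In the cholesterol list 23 of 25 members were called with the block and 19 without it.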
